A study of Mus musculus with 148 samples.

Results

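The region described here is the part of the imprinted gene *Zrsr1* that was captured for bisulfite sequencing in enterocytes of the mouse small intestine. It was chosen by position: every CpG listed in the files between 22965000 and 22985000 of chromosome 11 (GRCm38), each strand counted separately. The files list 44 such CpG strands, at 22 CpG positions, of 3762 CpG strands in all. Of the 44, 20 had more than 30 reads in at least 1 sample and the other 24 had no read in any sample. All 20 lie in *Zrsr1*, and 17 of them had more than 30 reads in every sample. The reference holds 300 CpG positions in the window and 130 in *Zrsr1*, so the values below describe a stretch of 950 bp in the middle of the gene, at the end of its coding sequence, not the whole imprinted domain.

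*Zrsr1* is a retrogene without introns that lies, in the opposite direction, within an intron of *Commd1*. In the mouse it is expressed from the paternal allele, and its promoter is methylated on the maternal allele, a mark set in the oocyte and kept in body cells. ZRSR1 is related to the small subunit of the splicing factor U2AF, and COMMD1 acts in copper handling and NF-κB signalling. A mark present on only the maternal or only the paternal allele of every cell gives a level near the middle of the scale, and bisulfite reads that are not assigned to an allele give only this average.

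The samples were enterocytes isolated from the villi of C57BL/6 mice (written C57BL/6MCrl in the labels and C57BL/6NCrl in the protocols), for which the labels name no transgene or mutation. The small intestine was cut from proximal to distal into 9 segments, with 71 samples from mice at P60 (postnatal day 60; 8 in each segment, 7 in segment 6). There were 10 samples from infants at P6 (3, 3 and 4 in segments 1, 3 and 7). At P90 there were 35 samples of mice given lactose-containing milk (LAC+; 7 in each of segments 1, 3, 4, 7 and 8) and 32 of mice given lactose-free milk (lac-; 6, 6, 7, 6 and 7 in the same segments), in both cases in place of water for 60 days. Sucrose was added to the lactose-containing milk only. The labels give an enterocyte fraction but no marker was measured in these files, so the identity of the cells could not be checked. The study treated segments as repeated measures of mice, so segments share animals, but the labels do not say which samples share one. P values across segments treat the samples as independent all the same and take no account of shared animals. For DNA modification the study gives fewer mice per P60 segment than there are samples here. It also counts further replicates beside 148 unique samples. Whether some samples here repeat a mouse was not tested, and each sample counts as 1 in SDs and tests. Segments are named as in the labels, and the text of the study draws the borders of duodenum, jejunum and ileum elsewhere, placing segment 3 in the jejunum.

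The region was captured with 6 padlock probes, DNA strands whose 2 arms anneal beside a target and between which the target is copied. The copied stretches are numbered 1 to 6 along the gene. Stretches 1, 2 and 4 read the plus strand, which is the coding strand of *Zrsr1*, and stretches 3, 5 and 6 read the minus strand. CpGs of 1 stretch are read from the same molecules and are not independent of each other. The well-read plus-strand stretches and the surroundings of the CpG of stretch 6 are shown because they hold the CpG called below and most of the well-read CpGs. They are written 5′ to 3′ on the plus strand of GRCm38 (RefSeq assembly), with the CpGs that were read in capitals.
Stretch 1, chr11:22973705-22973837, *Zrsr1* coding sequence and *Commd1* intron: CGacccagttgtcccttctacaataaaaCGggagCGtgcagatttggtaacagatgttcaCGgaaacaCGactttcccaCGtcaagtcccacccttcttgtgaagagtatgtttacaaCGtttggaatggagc
Stretch 2, chr11:22973862-22974001, *Zrsr1* coding sequence, its last 4 CpGs also in exon 2 of a *Commd1* transcript: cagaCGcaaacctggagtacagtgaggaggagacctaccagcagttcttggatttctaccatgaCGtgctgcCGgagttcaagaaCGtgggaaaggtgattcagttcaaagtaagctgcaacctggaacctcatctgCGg
Stretch 4, chr11:22974248-22974387, *Zrsr1* coding sequence and *Commd1* intron: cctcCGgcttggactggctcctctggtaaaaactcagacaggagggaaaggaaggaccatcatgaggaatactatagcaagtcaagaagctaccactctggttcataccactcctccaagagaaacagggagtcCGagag
Around the CpG of stretch 6, chr11:22974639-22974668, *Zrsr1* 3′ UTR and *Commd1* intron: caaaatattcaaaaCGaaactgattacaaa

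In the annotation used, *Zrsr1* runs from 22972005 to 22976496 on the plus strand in 1 exon, with its coding sequence from 22973228 to 22974511, and *Commd1* runs from 22896136 to 22982382 on the minus strand. The *Commd1* exon that overlaps stretch 2 spans 22973900 to 22974102 and belongs to a shorter transcript with a start of its own. Only the 3′ UTR CpG, 22974654, lies outside the coding sequence. The first CpG read is 1700 bp downstream of the gene start, so neither the *Zrsr1* promoter nor the *Commd1* promoter was read. Stretch 1 holds 7 CpGs and stretch 2 holds 5. Stretches 3, 4 and 5 hold 2 each, stretch 6 holds 1, and CpG 22974027 lies just beyond the designed end of stretch 2. *Zrsr2*, the X-linked gene of the same family, was the closest relative looked at: its transcript matched stretches 1 and 2 at 82.7% and 81.9% of aligned bases and stretch 4 at 75.8% over 91 of 140 bases, and how the mapping parted reads of the 2 genes was not tested.

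Depth was high. Summed over all cytosines of the window, samples had between 667256 and 4537698 reads (median 1079020), and the median depth per CpG ran from 3737 to 28141 reads. The depth was uneven between stretches. CpGs of stretches 1, 2, 4 and 6 had median counts of 5732 to 9016 reads over the samples, whereas the 2 CpGs of stretch 3 had medians of 153 and 153.5 reads. The remaining 3 CpGs were shallow: 22974027, 22974383 and 22974430 had medians of 48, 32 and 43 reads. The latter pair passed the minimum of 30 in 80 and 100 of the 148 samples, and CpG 22974027 in 50 of the 71 P60 samples. Within the segments of P60 the samples spread by 1.88 to 2.38 times the counting error of reads at the CpGs of stretches 1, 2, 4 and 6. Reads carry no molecular identifiers, so whether this spread exceeds that from sampling molecules cannot be told. At CpGs 22974212 and 22974253 of stretch 3 the spread was 1.03 and 1.14 times the counting error.

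DNA modification was close to 50% over the whole stretch. The percentage of modified reads, averaged over the 17 CpGs read in every sample, was 50.2% ± 1.13 (SD, n = 71) at P60, 49.6% ± 2.85 (SD, n = 10) at P6, 48.3% ± 1.29 (SD, n = 35) in LAC+ and 48.3% ± 1.00 (SD, n = 32) in lac- samples. The lowest of the 148 samples was at 44.6% and the highest at 54.2%, with a median of 49.2%. Cytosines outside CpGs served as the background of incomplete conversion. The 170 such cytosine strands of the window with enough reads in every sample had a mean of 0.527% ± 0.0494 (SD, n = 71) at P60 and of 0.407% to 0.833% over all 148 samples, far below the CpGs.

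**Figure D1:**
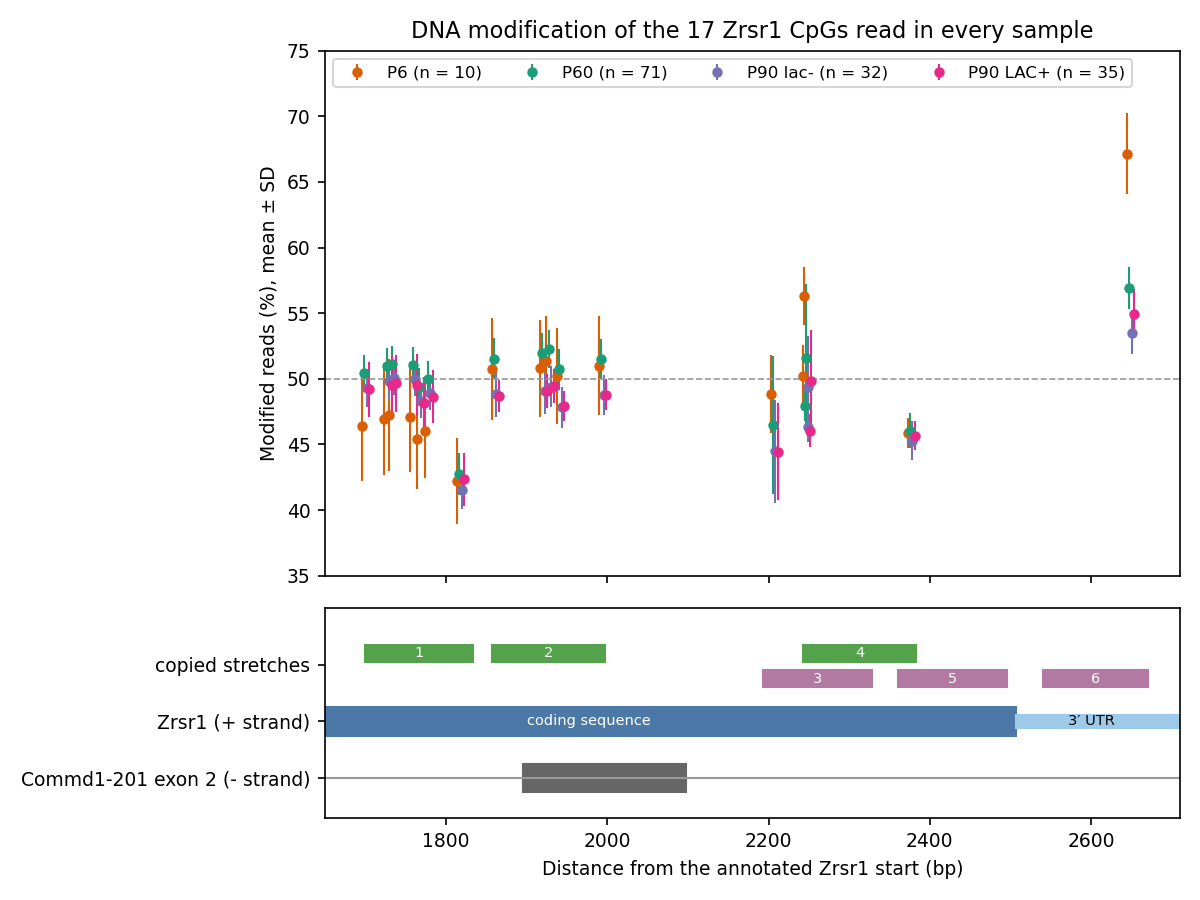
Modified reads (%, mean ± SD over samples) at each of the 17 CpGs against the distance in bp from the annotated *Zrsr1* start, for P6 (orange), P60 (green), P90 lac- (purple) and P90 LAC+ (pink), with the copied stretches (green plus strand, purple minus strand), the *Zrsr1* coding sequence and 3′ UTR and the *Commd1* exon 2 drawn to scale below. Most points lie near the dashed 50% line, and the CpG furthest to the right, in the 3′ UTR, is highest, at 67.2% in P6.

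Single CpGs departed little from this level, and by a fixed pattern. At P60, 15 of the 17 CpGs had means between 45% and 55%, with a median CpG of 50.99%. The exceptions were CpG 22973823, the last CpG of stretch 1, which had the lowest mean at 42.7% ± 1.62 (SD, n = 71), and CpG 22974654 in the 3′ UTR, which had the highest at 56.9% ± 1.59 (SD, n = 71). Over the P60 samples CpG 22973823 lay between 37.9% and 46.6% (median 42.5%). It was the lowest of the 7 CpGs of its stretch in all 148 samples, with a mean offset of -7.32 ± 1.55 points from the other 6 (SD, n = 148). Its offset in single samples ran from -11.3 to -1.81 points. In stretch 2, CpG 22973934 was the highest of the 5 CpGs in 107 of the 148 samples and CpG 22973947 the lowest in 133, but their offsets from the other 4 CpGs averaged only 0.818 and -1.09 points. The 4 CpGs that lie in both the *Zrsr1* coding sequence and the *Commd1* exon had P60 means between 50.7% and 52.3%, close to the 51.5% of CpG 22973866, the CpG of stretch 2 outside that exon.

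Samples moved together within a stretch and less so between stretches. After removal of the segment means, deviations of the 71 P60 samples at CpGs of 1 stretch had a median Pearson r of 0.921 over 33 pairs of CpGs, and those at CpGs of different stretches had a median r of 0.139 over 103 pairs, with a range from -0.103 to 0.408. CpGs of 1 stretch share reads, so the first value is a description of shared molecules. The neighbouring stretches 1 and 2 had r between 0.0125 and 0.254 over 35 pairs, whereas stretches 1 and 4 had r between 0.247 and 0.408 over 14 pairs. The 3′ UTR CpG had r between 0.258 and 0.334 with the CpGs of stretch 2 and between 0.294 and 0.348 with those of stretch 4. The 33 and 103 pairs all use the same 71 samples.

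At 2 CpGs both strands were read. At position 22974252 the plus strand had 47.3% and the minus strand 51.02% over the 148 samples, and the minus strand was higher in 120 of them. At position 22974382 the means were 45.7% and 58.7% over the 80 samples with more than 30 reads on both strands, and the minus strand was higher in 74. The minus strand values rest on medians of 153.5 and 58 reads against 9016 and 15883 on the plus strand, and the strands are captured by different probes. The shallow CpG 22974430 of the minus strand had a P60 mean of 59.2% ± 11.8 (SD, n = 26) and CpG 22974027 of the plus strand 45.9% ± 14.4 (SD, n = 50).

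Along the adult intestine no CpG of the region differed between segments past correction. The mean of the 17 CpGs was lowest in segment 1, the proximal duodenum, at 49.4% ± 1.25 (SD, n = 8), and highest in segment 3, the distal duodenum, at 51.2% ± 0.969 (SD, n = 8), a range of 1.76 points over the 9 segments. The 8 samples of segment 1 lay between 48.5% and 52.4% and those of segment 3 between 49.9% and 52.5%, so these groups overlapped. Cytosines were tested where at least 3 samples of every group exceeded 30 reads, by a quasi-binomial F test of modified against unmodified reads. It was called where p was under 0.01 after Bonferroni correction over all cytosines tested in the files. Of the 18 CpGs of the region that could be tested, 0 differed between the 9 segments, whereas 14.5% of the 1515 CpGs tested in all captured regions did. With Benjamini-Hochberg correction at 0.05 the counts were 0 of 18 and 24.8%. Of the other 20 captured regions with at least 3 CpGs read in every P60 sample, 8 likewise had 0 CpGs called. By limma 0 were called, a count for which no share of all CpGs is given here or below. Without any correction, 2 of 18 CpGs had a p under 0.05, 22974382 and the 3′ UTR CpG, against 39.7% of all CpGs.

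The lowest p among the 18 was that of CpG 22974382, a coding CpG of stretch 4, with 44.9% in segment 8 and 47.1% in segment 3 as its lowest and highest segment means (unadjusted p = 0.00204, quasi-binomial F test). At the 3′ UTR CpG the segment means ran from 55.7% in segment 9 to 58.01% in segment 5. Sequencing lanes were crossed with segments at P60, and the mean of the region was 50.6% ± 1.195 (SD, n = 23) on lane 5, 50.0% ± 1.18 (SD, n = 24) on lane 6 and 50.0% ± 0.921 (SD, n = 23) on lane 7. With lane in the fit the count of CpGs called remained 0.

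**Figure D2:**
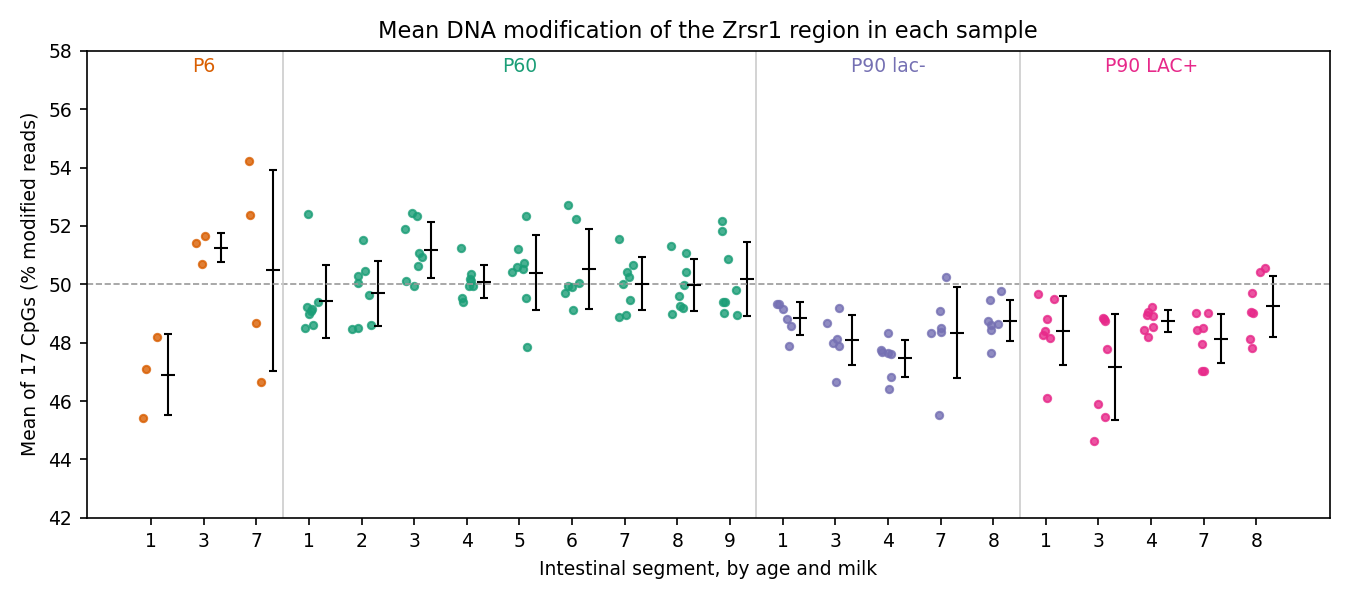
Mean DNA modification of the 17 CpGs (% modified reads) in each of the 148 samples, by age, milk and intestinal segment. Points are samples and black bars the mean ± SD of a group. All 22 group means lie between 46.9% and 51.3%, and the 4 samples of P6 segment 7 spread most, from 46.6% to 54.2%.

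Ordered by their mean, the 22 groups ran from P6 segment 1 at 46.9% ± 1.39 (SD, n = 3) to P6 segment 3 at 51.3% ± 0.505 (SD, n = 3). The 10 P90 groups took means from 47.2% to 49.2% and the 9 P60 groups from 49.4% to 51.2%. P60 segment 1 holds a sample far above the others (replicate 3, at 52.4%), and without it its mean was 48.99%, below the 49.2% of LAC+ segment 8. With all CpGs over 30 reads in a sample, LAC+ segment 8 stood at 50.2%, above 5 of the 9 P60 groups. That measure averages different CpGs in different samples, so the groups are not compared on the same CpGs. For example, CpG 22974430, with a P60 mean of 59.2%, entered it in 32 of 35 LAC+ and 26 of 71 P60 samples. None of the 21 steps between neighbours in this order was larger than the smaller SD of the pair, the largest being 0.650 points. Steps between 22 sorted means are small by construction, so this does not show that groups are alike. The region means of P60 and lac- samples did not overlap in segments 3 and 4. The SD within groups ran from 0.377 points in LAC+ segment 4 to 1.80 points, apart from 3.44 points in P6 segment 7.

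Infants and adults differed at 1 CpG of the region by the criterion above. This was CpG 22974654 in the 3′ UTR. In segment 7, the proximal ileum, its levels in the 4 P6 samples were 66.3%, 68.5%, 63.9% and 68.4%, and the 8 P60 samples lay between 54.7% and 57.2% (median 55.8%). Every infant sample was above every adult sample. The means were 66.8% ± 2.19 (SD, n = 4) and 55.9% ± 0.931 (SD, n = 8), a difference of 10.9 points. The difference had an adjusted p of 0.00588 (quasi-binomial F test, Bonferroni correction over 22325 cytosines). An exact permutation test gave an unadjusted two-sided p of 0.00202, the smallest that 4 against 8 samples allow. This p restates that the groups did not overlap, which held for 18.1% of all CpGs tested here. The 3′ UTR CpG was the 1 called of 18 CpGs tested, or 5.56%, against 1.98% of the 1513 CpGs tested over all regions. The call was lost when infant replicate 1, 2 or 4 was left out (adjusted p of 0.0384, 0.0250 and 0.0267) and held without replicate 3. With limma on the log2 odds (0 of 18 called) the adjusted p was 1.

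In segments 1 and 3 the same CpG lay above the adult range but did not pass the Bonferroni threshold. In segment 3 the 3 P6 samples had 71.2%, 68.6% and 66.3%, against 54.6% to 60.5% in the 8 P60 samples (median 57.6%). In segment 1 they had 64.2%, 62.3% and 71.7%, against 55.8% to 59.03% (median 57.7%). The groups did not overlap in either segment. The differences were 11.04 and 8.62 points, with adjusted p of 0.113 and 1 after Bonferroni correction and of 0.00146 and 0.0368 after Benjamini-Hochberg correction, so that neither passed the main threshold. Whether the age difference varied between segments was tested as an interaction, which gave an adjusted p of 1 at this CpG. With 3 against 8 samples an unadjusted exact permutation p cannot go below 0.00606, which both segments reached. In segments 1 and 3 the groups did not overlap at 26.1% and 16.4% of all CpGs tested either.

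**Figure D3:**
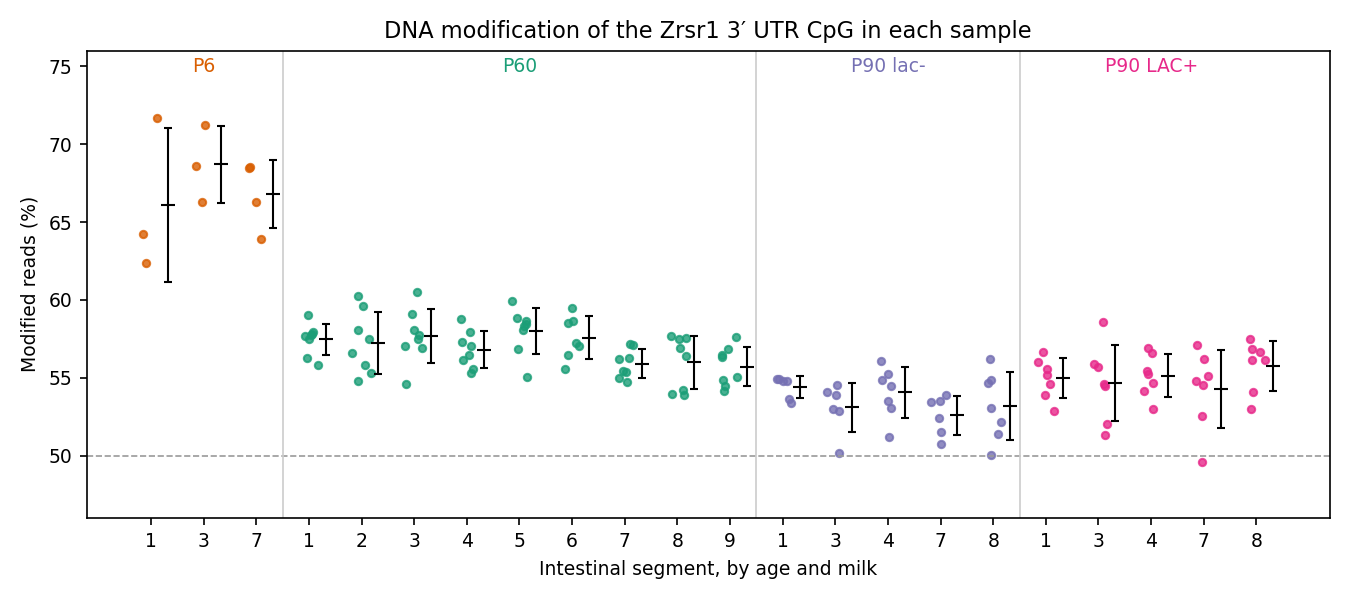
DNA modification (% modified reads) of CpG 22974654 in the *Zrsr1* 3′ UTR in each of the 148 samples, by age, milk and intestinal segment. Points are samples and black bars the mean ± SD of a group. The 10 P6 samples sit between 62.3% and 71.7%, above all P60 samples (53.9% to 60.5%) and all P90 samples.

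No coding CpG passed the Bonferroni threshold between infants and adults, and the differences had either sign. In segment 1, stretch 1 stood at 40.6%, 42.9% and 43.1% in the 3 P6 samples against 47.1% to 51.1% in the 8 P60 samples, and the groups did not overlap. Its lowest p was at CpG 22973773, with 40.7%, 41.99% and 42.1% at P6 against 47.2% to 50.8% at P60 (median 48.4%). The means of this CpG were 41.6% ± 0.790 (SD, n = 3) and 48.6% ± 1.11 (SD, n = 8), a difference of -7.005 points. Its adjusted p was 0.0410 with Bonferroni correction, which missed the 0.01 threshold, and 0.000784 with Benjamini-Hochberg correction. Under the main criterion 0 of 18 CpGs were called in segment 1 and 1.21% of the 1492 CpGs of all regions, while 12 of 18 and 44.2% had an unadjusted p under 0.05 and limma called 0. With Benjamini-Hochberg correction 7 of 18 were called (22.4% of all CpGs), 6 in stretch 1 with differences of -7.48 to -6.62 points in infants and the 3′ UTR CpG that was higher. The groups did not overlap at 9 of 18 CpGs, against 26.1% of all CpGs.

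In segment 3, 0 of 18 CpGs were called with Bonferroni correction, against 1.21% of the 1492 CpGs of all regions, 7 of 18 and 34.2% had an unadjusted p under 0.05, and limma called 0. With Benjamini-Hochberg correction 2 of 18 were called (13.8% of all CpGs), the 3′ UTR CpG and CpG 22974252 of stretch 4, higher at P6 by 11.04 and 2.92 points. The groups did not overlap at 3 of 18 CpGs, against 16.4% of all. Stretch 1 had 48.3% ± 1.43 (SD, n = 3) at P6 and 50.1% ± 1.04 (SD, n = 8) at P60, which overlapped. In segment 7 the 3′ UTR CpG alone passed Benjamini-Hochberg correction, against 19.2% of all CpGs, and it alone had groups that did not overlap, against 18.1% of all CpGs.

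The 4 P6 samples of segment 7 differed widely in the coding stretches. Stretch 1 stood at 44.7%, 50.3%, 41.1% and 51.2% in replicates 1 to 4, and stretch 2 at 51.5%, 52.3%, 46.8% and 57.8%. Replicate 3 was lowest and replicate 4 highest in both, whereas stretch 4 had its highest value, 49.9%, in replicate 3. The medians of reads per CpG in these samples were between 6469 and 9746. The dispersion of the fit, the variance between samples as a multiple of counting variance, had a median of 21.8 over the 18 CpGs in this comparison, against 5.08 in segment 1 and 4.28 in segment 3. The median over all CpGs tested in segment 7 was 6.18.

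Whether age effects differed between segments was tested as an interaction of age with segments 1, 3 and 7. Of 17 CpGs, 0 were called by either correction, against 0.202% and 1.01% of the 1482 CpGs tested in all regions by Bonferroni and Benjamini-Hochberg correction. At an unadjusted p under 0.05 there were 4, against 24.2% of all CpGs, and limma called 0. The lowest p was at CpG 22973765 of stretch 1, whose means were 42.98% in P6 segment 1 and 51.5% in P60 segment 3, the extremes of the 6 groups. Lane 8 held the 10 P6 samples and nothing else, so age and lane cannot be told apart at any of these CpGs.

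**Figure D4:**
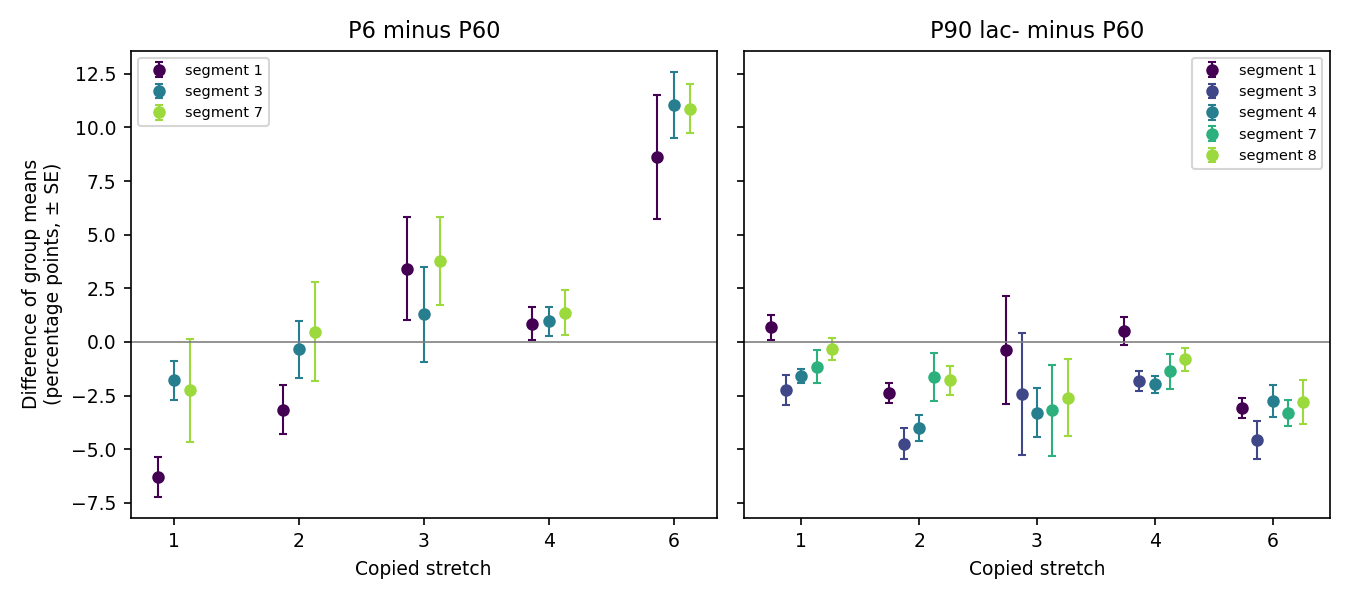
Difference of group means in percentage points (± SE, from the SDs of both groups) for each stretch read in every sample, P6 minus P60 on the left and P90 lac- minus P60 on the right, with colours for intestinal segments. Stretch 6 holds the 3′ UTR CpG and is higher in infants by 8.62 to 11.04 points, while differences of stretch 1 lie between -6.29 and -1.78 points.

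No CpG of the region differed past correction between the milk groups. LAC+ and lac- mice were compared within segments 1, 3, 4, 7 and 8, and 0 of 20 CpGs were called in each, by Bonferroni or by Benjamini-Hochberg correction. The background was the same, 0% of the 1579, 1510, 1582, 1503 and 1537 CpGs tested over all regions by either correction. At an unadjusted p under 0.05 there were 0, 2, 11, 0 and 2 CpGs of the region in these segments, against 8.55%, 7.22%, 9.29%, 15.4% and 18.4% of all CpGs, while limma on the log2 odds called 0 in every segment. Of the 11 CpGs in segment 4, 7 belong to stretch 1 and so share reads.

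In segment 4, the proximal jejunum, the region mean was 47.5% ± 0.636 (SD, n = 7) in lac- and 48.8% ± 0.377 (SD, n = 7) in LAC+ samples. Its lowest p was at CpG 22973773, with 46.7% to 47.9% (median 47.6%) in lac- and 47.8% to 49.7% (median 49.3%) in LAC+ samples. These groups overlapped, and the difference of 1.44 points had an unadjusted exact permutation p of 0.00117 and an adjusted p of 1. Averaged over the 7 CpGs of stretch 1 the groups did not overlap, with lac- samples up to 47.616% and LAC+ samples from 47.623%, a difference of 1.74 points that has no test. At the low CpG 22973823 the difference there was 2.84 points, also with an adjusted p of 1. On lane 3, which carried 5 of the lac- and all 7 LAC+ samples of segment 4, the region mean was higher in LAC+ by 1.12 points.

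The 3′ UTR CpG was higher in LAC+ than in lac- samples by 0.558, 1.57, 1.07, 1.67 and 2.55 points in segments 1, 3, 4, 7 and 8, and the groups overlapped in every segment. In segment 8, the medial ileum, it had 53.2% ± 2.18 (SD, n = 7) in lac- and 55.8% ± 1.62 (SD, n = 7) in LAC+ samples. Its adjusted p was 1 in all 5 segments. The other lowest p values of a segment were at CpG 22974212 in segment 1 (-2.72 points in LAC+), the shallow CpG 22974430 in segment 3 (-9.53 points), CpG 22973866 in segment 7 (-1.46 points) and CpG 22974253 in segment 8 (4.38 points), each with an adjusted p of 1. An interaction of milk with segment was called at 0 of 20 CpGs and at 0% of the 1489 CpGs of all regions, by both corrections. At an unadjusted p under 0.05 there were 2, against 6.38% of all CpGs, and limma called 0. The lowest p was at the shallow CpG 22974027, whose means ran from 22.9% in lac- segment 3 to 57.2% in lac- segment 4.

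The lac- mice at P90 had lower means than the mice at P60 at most CpGs of the region in segments 3, 4, 7 and 8, by a few points. None passed Bonferroni correction. In segment 1, 9 CpGs were lower and 10 higher. The median difference in segments 1, 3, 4, 7 and 8 was 0.201, -2.41, -2.20, -1.63 and -0.725 points in the region. Over all CpGs tested it was -0.619, -0.587, -1.05, -0.336 and -0.358 points. Between the lac- and P60 groups age and milk in place of water differ together and cannot be told apart. Lanes were shared in part, with P60 samples on lanes 4 to 7 and lac- samples on lanes 1, 3, 5, 6 and 7. The region mean differed in lac- samples by -0.582, -3.09, -2.61, -1.68 and -1.22 points in segments 1, 3, 4, 7 and 8. In segment 3 the 6 lac- samples lay between 46.7% and 49.2% and the 8 P60 samples between 49.9% and 52.5%. In segment 4 the 7 lac- samples lay between 46.4% and 48.3% and the 8 P60 samples between 49.4% and 51.2%. The groups were apart in these 2 segments and overlapped in the other 3. Without the far sample of P60 segment 1 the difference in segment 1 was -0.153 points.

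By Bonferroni correction 0 of 19, 19, 18, 18 and 18 CpGs of the region were called in segments 1, 3, 4, 7 and 8, against 0%, 0%, 0.0648%, 0% and 0% of all CpGs tested. At an unadjusted p under 0.05 there were 6, 14, 16, 1 and 7, against 27.7%, 22.3%, 49.3%, 16.2% and 16.4% of all CpGs, and limma called 0 in every segment. By Benjamini-Hochberg correction 6, 9, 12, 1 and 0 were called, and each of these was lower in lac- samples. The 6 in segment 1 fell to 1 without replicate 3 of P60. The corresponding shares of all CpGs were 3.77%, 6.59%, 29.2%, 1.8% and 2.69%, against 31.6%, 47.4%, 66.7%, 5.56% and 0% of the CpGs of the region. The groups did not overlap at 1, 7, 10, 1 and 0 CpGs, in each case with lac- below, against 3.05%, 2.46%, 4.53%, 1.2% and 0.591% of all CpGs. CpGs of 1 stretch count together here, since all 5 CpGs of stretch 2 were called by Benjamini-Hochberg correction in segments 1, 3 and 4.

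The differences were larger in stretch 2 and at the 3′ UTR CpG than in stretch 1 in each segment, without a test between stretches. For stretch 2, lac- minus P60 was -2.36, -4.74, -4.004, -1.63 and -1.79 points in segments 1, 3, 4, 7 and 8. For stretch 1 it was 0.676, -2.24, -1.59, -1.15 and -0.323 points. The lowest p in segment 4 was at CpG 22973866, with 50.2% to 53.6% (median 51.5%) at P60 and 46.5% to 49.4% (median 46.95%) in lac- samples. The groups did not overlap, and the difference of -4.08 points had an adjusted p of 0.109 by Bonferroni and of 0.00364 by Benjamini-Hochberg correction. In segment 3 it was at CpG 22973934, with 51.6% to 56.1% (median 53.2%) at P60 and 47.1% to 50.6% (median 48.4%) in lac- samples. Its difference of -4.63 points had adjusted p of 0.496 and 0.00299 by the same corrections. In segment 8 the lowest p was again at CpG 22973934, with a difference of -2.08 points, the groups overlapped and the adjusted p was 1.

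At the 3′ UTR CpG the lac- mice at P90 differed from P60 by -3.08, -4.58, -2.75, -3.32 and -2.79 points in segments 1, 3, 4, 7 and 8. It had the lowest p of the region in segments 1 and 7. In segment 1 the 8 P60 samples lay between 55.8% and 59.03% and the 6 lac- samples between 53.4% and 54.9% (median 54.8%). In segment 7 the ranges were 54.7% to 57.2% and 50.7% to 53.9%. The groups did not overlap in segments 1, 3 and 7, and the adjusted p by Benjamini-Hochberg correction was 0.0128, 0.00507, 0.0331 and 0.0168 in segments 1, 3, 4 and 7 and 0.166 in segment 8. Over all samples of a condition this CpG thus stood at 67.2% ± 3.11 (SD, n = 10) at P6, 56.9% ± 1.59 (SD, n = 71) at P60, 54.95% ± 1.87 (SD, n = 35) in LAC+ and 53.5% ± 1.61 (SD, n = 32) in lac- mice at P90. On lanes that carried samples of both groups, it was lower in lac- samples in 8 of 8 comparisons within a segment and lane, with differences of -8.54 to -0.239 points and 1 to 4 samples on each side, although an equal lane number need not be the same run.

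Among the captured regions the *Zrsr1* stretch was one of several near 50%. CpGs less than 10000 bp apart were joined into regions, and 21 regions held at least 3 CpGs with more than 30 reads in every P60 sample. In the *Zrsr1* region all 17 CpGs had P60 means between 40% and 60%, which held for 1 of the other 20 regions. A mean between 45% and 55% held for 8 of the other 20, among them *Slc38a4* at 49.8% and *Herc3*/*Nap1l5* at 49.7%. The SD of the *Zrsr1* region mean over the 71 samples, 1.13 points, was the smallest of the 21. Those of *Zdbf2* and *Mest* were close to it, at 1.18 points each, and 2 other regions had a smaller range of segment means. At the *Lct*–*Mcm6* locus, the main target of the study, 609 CpGs had a mean of 79.3% ± 1.25 (SD, n = 71) with 107 CpGs called between segments, and 3.94% of its CpGs had means between 40% and 60%. The *Grb10* region on chromosome 11, another imprinted gene, stood at 60.9% ± 1.45 (SD, n = 71), with single CpGs from 11.7% to 92.3%. A region at the transcript Gm34081 on chromosome 12, in the *Dlk1*–*Meg3* domain, stood at 77.4% ± 1.43 (SD, n = 71), with 19 of 65 CpGs called between segments.

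**Figure D5:**
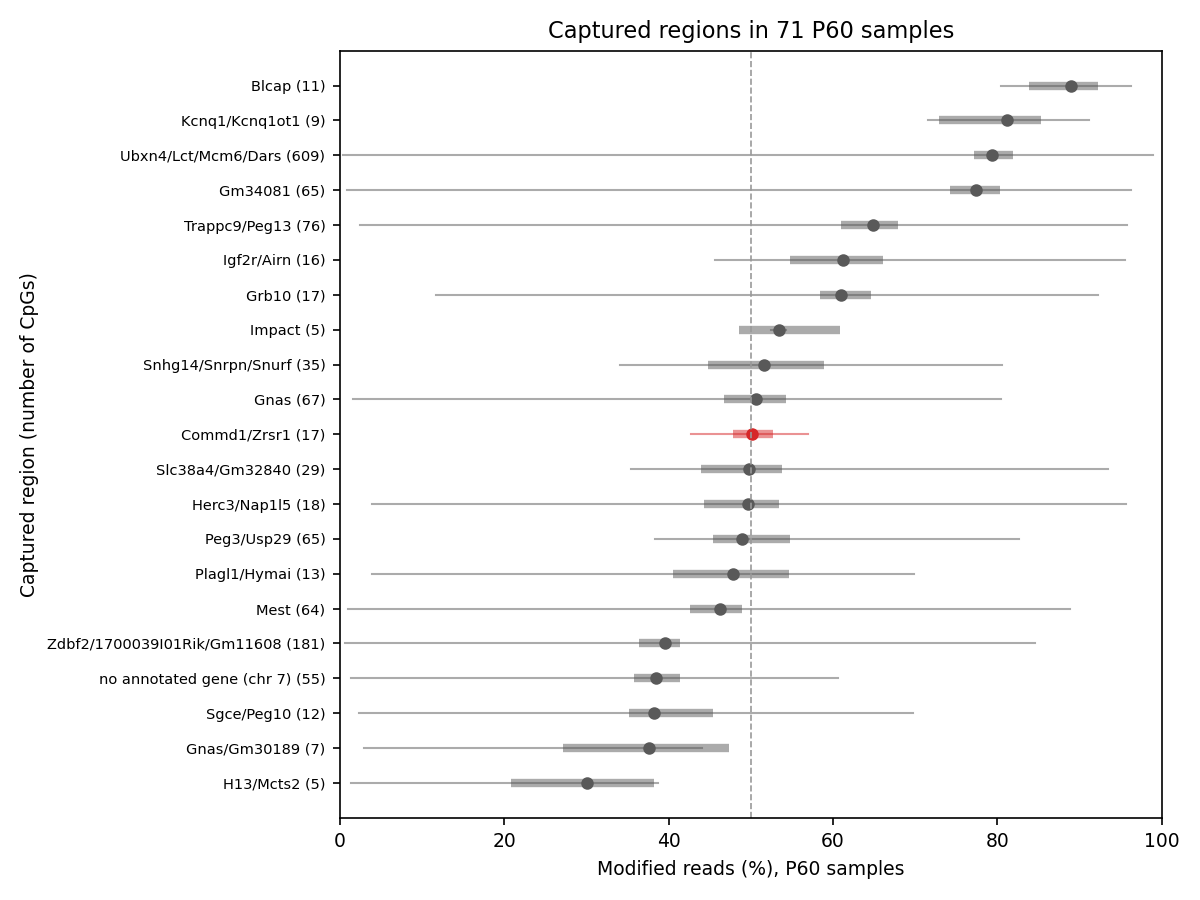
Modified reads (%) of the 21 captured regions in the 71 P60 samples, ordered by their mean, with the number of CpGs in parentheses. Points are means over samples, thick bars the range of the region mean over samples and thin lines the range of the CpG means, with the *Zrsr1* region in red. Its CpG means reach from 42.7% to 56.9%, a narrower band than in most other regions.

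The region mean followed no other captured region closely from sample to sample. Over the 71 P60 samples its Pearson r with the means of the other 20 regions ran from -0.157 to 0.309, where all regions of a sample share its library. The 3 highest values were those with *H13*/*Mcts2* on chromosome 2 (r = 0.309), *Impact* on chromosome 18 (r = 0.309) and *Gnas*/Gm30189 on chromosome 2 (r = 0.223), from 5, 5 and 7 CpGs.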

How the data were processed

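Bisulfite padlock-probe sequencing measured DNA modification in 148 samples. The deposited files give, for each of 47909 cytosines and strand, counts of modified and unmodified reads, which the authors made by trimming with Trimmomatic 0.32 and aligning with Bismark to GRCm38, per the labels and the study's methods. Bisulfite does not separate methylated from hydroxymethylated cytosine. The first line of 147 files could not be read and lies outside the region. The percentage of modified reads was computed where a cytosine had more than 30 reads. Reads carry no molecular identifiers, so counting errors and intervals may be too small.

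All cytosines with more than 30 reads in 3 or more samples of each group entered a quasi-binomial F test (NumPy 2.4.6, SciPy 1.17.1, two-sided for pairs of groups) with a separate dispersion for each cytosine. Calls needed a Bonferroni-adjusted p under 0.01 over all cytosines tested, and Benjamini-Hochberg calls at 0.05 were an alternative. The exact permutation test was run on percentages. limma 3.58.1 was run on log2 odds with a pseudocount of 0.5. It draws the variance of each cytosine towards a value shared by all cytosines tested, CpGs and others together. How many CpGs of all regions it called is not given here, so its counts for the region have no background beside them. The scripts were tested on simulated data. Named CpGs were those called, that with the lowest p in each comparison and those with the lowest and highest level at P60, and other CpGs were named after their values were seen. Of other regions, the 3 with the highest r and 3 picked loci are named. The region mean has no test. The region, its members and the lists were chosen with earlier results of these data known. No expression was analysed here.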

Additional observations from a re-analysis of the deposited data

Results flagged for a closer look

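In 60 groups of 4 to 10 samples, the gap of the highest or lowest sample to its neighbour, as a share of the range, was compared with Dixon's limit, which chance passes in about 1 of 20 groups. It was passed in 3. Replicate 3 of P60 segment 1 had a region mean of 52.4%, with the others between 48.5% and 49.4%. Replicate 6 of LAC+ segment 1 had a region mean of 46.1%, with the others between 48.2% and 49.7%. At CpG 22973823, replicate 3 of LAC+ segment 7 had 44.4%, with the others between 40.5% and 42.1%.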

How the results depend on the processing

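Under the alternatives 34 values of the main counts and region means moved (counts by over 1.5 times, means by more than the replicate SD), the others did not, and no direction was reversed. With Benjamini-Hochberg correction the counts of CpGs called became 7 and 2 for P6 against P60 in segments 1 and 3, and 6, 9, 12 and 1 for lac- against P60 in segments 1, 3, 4 and 7. When the Bonferroni correction ran over CpGs alone they became 2 and 1 for P6 in segments 1 and 3, and 1 for lac- against P60 in segment 4. The share of all CpGs called over CpGs alone is not given, so these last counts cannot be set against a background. These settings test fewer cytosines or use a laxer criterion.

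The call in P6 segment 7 became 0 with limma on the log2 odds, and ranged from 0 to 1 when each P6 replicate was left out. The cause was not tested with limma. With a replicate block it also became 0 (adjusted p of 1). Infants and adults are different animals, so replicate numbers cannot pair them and this block is no test of the call. Over the 4 pairs of equal number in that comparison the lowest r was -0.186, and 2 of 12 samples correlated best with their own number. The rule for pairing was not met in any comparison. Across segments, 28 of 71 P60 samples correlated best with their own number, where equal chances for all partners give 8.88, and mean r was 0.0441 for equal and -0.00569 for other numbers. At P6 it was 6 of 10, where equal chances give 2.71, with mean r of 0.163 and -0.0598. This is a hint from the data, not the design. At P60 the replicate number goes partly with the lane, with replicate 1 on lane 6 in every segment, while all P6 samples were on lane 8. Whether shared lanes or shared animals lie behind the hint was not tested. The block changed no other count.

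With all CpGs over 30 reads in the sample, region means moved to 49.2% in P6 segment 1, 49.6%, 48.8% and 49.5% in lac- segments 1, 4 and 8, and 49.2% in LAC+ segment 4. With the 19 CpGs over 10 reads in every sample, they moved to 48.9% and 52.3% in P6 segments 1 and 3, and to 50.9%, 51.1%, 50.9%, 52.003%, 51.2% and 51.6% in P60 segments 1, 2, 4, 6, 8 and 9. They moved to 49.9%, 49.5%, 48.4% and 49.7% in lac- segments 1, 3, 4 and 8, and to 49.3%, 49.5% and 50.5% in LAC+ segments 4, 7 and 8. The added CpGs are the shallow ones of stretch 5.

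Lane as a covariate changed no count, and was not run for P6, which shares no lane. Leaving out P60 segment 1 replicate 4, whose file is named as a repeat, leaving out its replicate 3 and a term for merged files were chosen after seeing the data and changed no Bonferroni count. Replicate 4 differed from replicate 1 by more than the counting noise of reads (chi-square of 3.02 per CpG) and was kept. It was nevertheless the closest pair of replicates in P60 segment 1, with the other pairs at 4.28 to 9.49. Whether the 2 samples come from the same mouse was not tested. Depth limits stretches 3 and 5 and CpG 22974027.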
